A study of Mus musculus with 2 samples.

Results

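The transcripts described here carry a microexon, an internal exon of 3 to 27 bases, and were read end to end in hippocampus of the mouse. They were chosen from the exon coordinates and the reads: a spliced transcript model of an annotated gene, of class Known, NIC or NNC, entered when it held such an exon and had 2 or more reads over both libraries. Known models match an annotated transcript, NIC models combine annotated splice sites in a new way, and NNC models use at least 1 splice site that is not in the annotation. This gave 895 models of the 33172 spliced models of annotated genes with 2 or more reads. They held 417 distinct microexons in 380 genes, among 90599 distinct internal exons chosen by the same reads. The reads that chose the models also enter their inclusion, so the levels below are a description.

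Microexons are the shortest exons that the spliceosome joins, and in the brain many of them are spliced in by neuronal factors such as Srrm4 and the Rbfox proteins. Most known ones insert a few amino acids into proteins of the synapse, the cytoskeleton and vesicle traffic without changing the reading frame. A long read shows for each molecule whether the exon was spliced in or passed over, and joins choices that lie far apart in a transcript.

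The tissue was hippocampus from mice of strain B6NCrl, labelled C57BL/6, described as male and 6 months of age, and no genotype, treatment or second group is named. The 2 libraries, replicate 1 and replicate 2, have biosamples of their own and 1 shared donor identifier, so whether 2 animals were sampled is not stated and their spread may be technical. Tests set 1 library against the other and cover counting error alone. Depth was 1330153 reads in replicate 1 and 1366252 in replicate 2. All 5 neuronal markers had reads, with summed levels of 5022 and 6215 CPM (reads per 1000000 reads of the library). The 5 choroid plexus markers had a summed level of 13894 CPM in replicate 1, against 312 in replicate 2, with reads for all 5 in both. In bulk tissue, fewer cells of a type and less RNA per cell cannot be told apart.

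Member models took 16204 reads of replicate 1 (1.22%, exact Clopper-Pearson 95% interval 1.20 to 1.24%) and 18260 of replicate 2 (1.34%, 1.32 to 1.36%). A total of 714 members (79.8%) had reads in both libraries. The 409 Known members held 88.0% of the members' reads, the 343 NIC members 8.91% and the 143 NNC members 3.10%. A member had a median of 4 reads, and the largest, a model of Bsg, had 3289. Just inside the threshold were 253 members with exactly 2 reads, and just outside it were 1688 models that held a microexon on 1 read. A single microexon was found in 349 of the 380 genes, and 44 members held 2 of them on the same model.

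The microexons that the results turn on are shown with 20 bases of the exons on either side, as spliced in the transcript, read 5′ to 3′ on the transcript strand. Capitals mark the microexon, positions are in GRCm38, and the letters come from the GENCODE M21 transcripts, not from the reads. The first set was spliced into part of the transcripts and passed over in the rest. The second set, Selenow, Gpx4 and Bsg, is among those with most included reads. The third set, from Amph, was paired on the same molecules. The last 3 are annotated microexons that no read carried as an exon of its own.
Cd47, chr16:49908054-49908078, plus strand: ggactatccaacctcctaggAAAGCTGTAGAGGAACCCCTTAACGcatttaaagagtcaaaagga
Mef2a, chr7:67244521-67244544, minus strand: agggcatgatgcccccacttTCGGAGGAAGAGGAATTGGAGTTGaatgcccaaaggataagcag
Mef2c, chr13:83654598-83654621, plus strand: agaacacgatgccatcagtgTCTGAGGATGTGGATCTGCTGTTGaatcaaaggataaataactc
Max, chr12:76961263-76961289, minus strand: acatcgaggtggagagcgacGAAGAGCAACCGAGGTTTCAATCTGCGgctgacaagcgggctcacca
Anxa6, chr11:54987051-54987068, minus strand: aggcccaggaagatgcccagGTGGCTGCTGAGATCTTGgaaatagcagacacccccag
Nrbp1, chr5:31246322-31246345, plus strand: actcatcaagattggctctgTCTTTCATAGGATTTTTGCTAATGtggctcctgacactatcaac
Dnm2, chr9:21490658-21490669, plus strand: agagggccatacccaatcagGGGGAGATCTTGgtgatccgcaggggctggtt
Selenow, chr7:15920449-15920473, minus strand: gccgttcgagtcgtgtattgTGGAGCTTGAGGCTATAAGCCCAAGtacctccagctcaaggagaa
Gpx4, chr10:80055923-80055947, plus strand: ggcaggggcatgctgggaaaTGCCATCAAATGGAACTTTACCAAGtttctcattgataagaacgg
Bsg, chr10:79711256-79711280, plus strand: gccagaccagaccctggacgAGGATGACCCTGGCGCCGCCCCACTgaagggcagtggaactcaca
Amph, first of the pair, chr13:19116237-19116260, plus strand: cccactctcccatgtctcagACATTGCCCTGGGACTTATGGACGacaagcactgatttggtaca
Amph, second of the pair, chr13:19118152-19118175, plus strand: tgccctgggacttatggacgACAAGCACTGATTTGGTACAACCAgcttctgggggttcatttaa
Apbb1, chr7:105565946-105565951, minus strand: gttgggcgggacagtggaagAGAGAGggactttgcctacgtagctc
Pitpnb, chr5:111347120-111347127, plus strand: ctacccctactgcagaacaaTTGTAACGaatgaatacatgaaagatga
Hnrnpk, chr13:58393853-58393868, minus strand: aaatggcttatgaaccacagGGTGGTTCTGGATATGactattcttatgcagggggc

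Of the 417 microexons, 382 were annotated as internal exons in GENCODE M21 and 35 were not. By the annotation, 345 lay in coding sequence, 15 held the start or stop codon or reached past it, 10 lay in a 5′ UTR, 10 in noncoding transcripts and 2 in coding sequence of transcripts marked for nonsense-mediated decay. A length divisible by 3, which keeps the reading frame, was found for 231 of them (55.4%), against 38.2% of the 90182 internal exons of 28 bases or more. Among 347 coding members, adenine made up 30.9% of the bases and cytosine 21.5%, against 26.4% and 24.5% in 41989 coding internal exons of 28 to 300 bases with 20 or more reads. The exons began at the first base of a codon in 156 of the 347 (45.0%), against 47.5% of the longer exons. Among microexons with at least 20 reads, the intron before the microexon had a median length of 1471 bases and the intron after it 940, against 1300 and 1188 for the longer exons. Features of the intron sequence were not analysed here, since no genome sequence was used.

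Length divided the microexons that were read from those that were not. The shortest member microexon had 12 bases, and 180 of the 417 had 25 to 27. To see what lay below that size, every annotated internal exon of 3 to 27 bases spanned by 20 or more reads was counted, whether or not any read carried it. None of the 58 exons of 3 to 11 bases had a read that included it, among 12938 spanning reads. Pooled over these exons, a count of 0 allows a share of up to 0.0232%, which bounds no single exon. Reads with extra bases in a neighbouring exon, described below, count here as not included. Included reads were found for 7 of 50 exons of 12 to 15 bases, 12 of 30 of 16 to 18, 38 of 59 of 19 to 21, 69 of 84 of 22 to 24, and 111 of 118 of 25 to 27. The plot of annotated exons by length shows this step from no detected exon below 12 bases to nearly all at 25 and above.

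**Figure D1:**
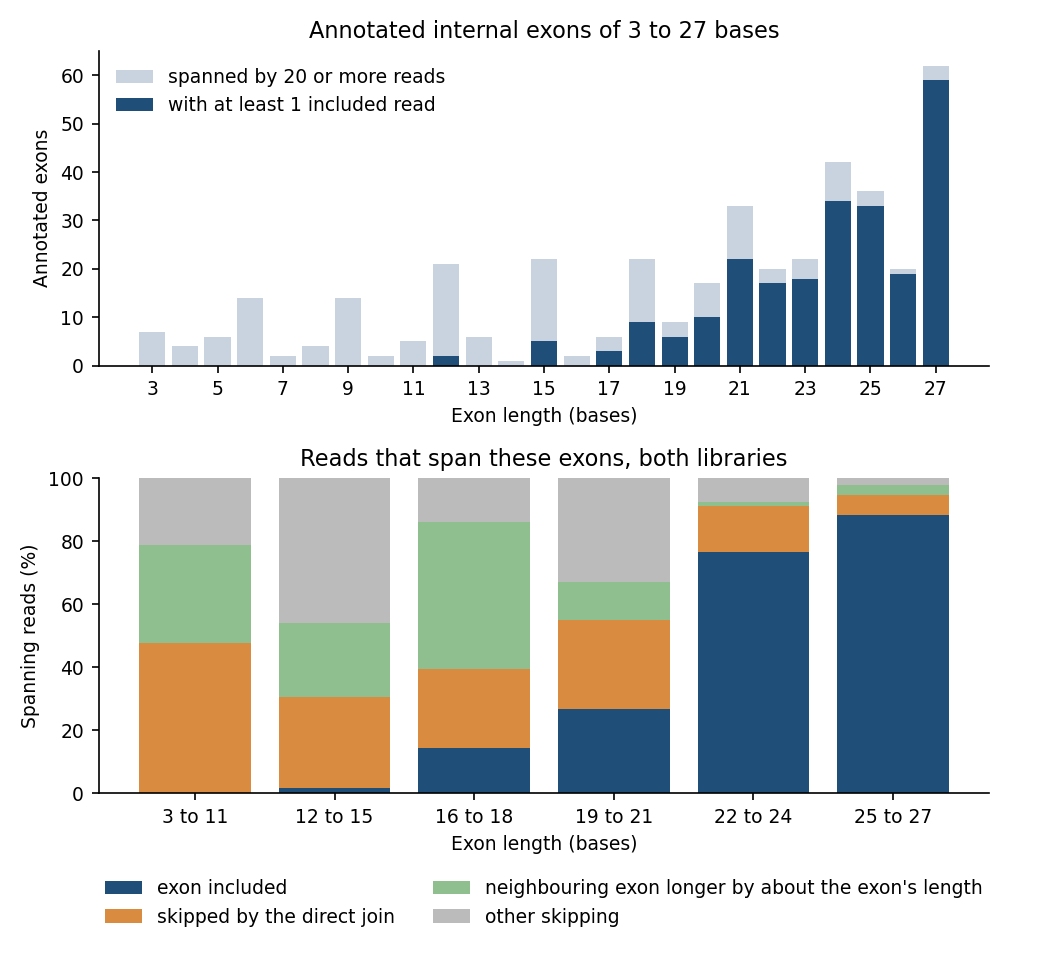
Upper panel: annotated internal exons of each length (bases) that 20 or more reads spanned, with those that at least 1 read included drawn in dark. Lower panel: the spanning reads of both libraries by length class, in percent. The 58 exons of 3 to 11 bases have no dark part, and 111 of the 118 exons of 25 to 27 bases do. The near-length part is largest at 16 to 18 bases, where 1 exon of Hnrnpk gives most of it.

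Part of the reads that passed over a short annotated exon carried about as many extra bases in a neighbouring exon. Such near-length reads were defined as reads whose skipping intron is shorter than the direct join by the exon's length within 5 bases, with each splice site within 60 bases of the direct one. They made up 4008 of the 12938 reads over exons of 3 to 11 bases (31.0%), beside 6187 direct joins. A tolerance of 5 bases is wide for exons this short. In 1424 of the 4008 reads the extra bases matched the exon's length exactly. In Apbb1, the gene of the Fe65 adaptor of the amyloid precursor protein, the exon of 6 bases was included in 0 of 1269 reads. There, 373 reads of replicate 1 and 570 of replicate 2 had a neighbouring exon longer by exactly 6 bases, and 126 and 184 joined the flanking exons directly. The 8-base exon of Pitpnb, a phosphatidylinositol transfer protein, showed the same form in 145 and 192 reads of 350 in all. The 16-base exon of Hnrnpk, an RNA-binding protein, had 627 and 837 reads with exactly 16 extra bases, 33 direct joins and no included read. In these 3 genes such reads outnumbered direct joins in both libraries. Other short exons were passed over without them: the 6-base exon of Phb2 was joined over directly in 205 and 228 reads, with 0 near-length reads of 433. How short exons were aligned was not tested. These genes were chosen after their values were seen.

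Among member microexons, 239 had 20 or more reads that either included or spanned them, with a median of 88 reads. Inclusion is the share of these reads that carried the exon, over all Known, NIC and NNC models of the gene. Its median was 93.8% in replicate 1 and 93.5% in replicate 2. It was at least 90% for 141 microexons, 50 to 90% for 54, 10 to 50% for 22 and under 10% for 22. The 98 microexons under 90% (41.0%) stand beside 6.63% of 47402 internal exons of 28 bases or more, whose median was 100%. The median rose along the length classes, from 16.7% for 7 microexons of 12 to 15 bases to 52.3% at 16 to 18, 82.0% at 19 to 21, 94.4% at 22 to 24 and 96.6% at 25 to 27. The classes mix annotated exons with unannotated ones, which had lower inclusion as given below, and were not split by annotation. Of the 8724 reads that passed over these 239 exons, 4113 (47.1%) joined the flanking splice sites directly, 2606 (29.9%) were near-length reads and 2005 used other introns. Without the near-length reads the median was 96.4% and 79 microexons were under 90%. With direct joins alone it was 100% and 61.

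Skipping was also counted by reading frame. Among coding microexons with 20 or more reads, 47 of 111 with a length divisible by 3 (42.3%) were under 90% inclusion, and 22 of 93 with another length (23.7%). Direct joins made up 61.7% of the 2442 skipping reads of the first set and 17.1% of the 2543 of the second. These shares pool reads, and single exons weigh heavily in them. In the second set Bsg gave 731 skipping reads with 0 direct joins, Rapgef4 330 with 1 and Cd47 246 with 217. The 20-base exon of Chmp1a gave 468, and its direct joins are not given here. In the first set Bin1 gave 318 with 5. Of 76 microexons with 10 to 90% inclusion, 47 were passed over mostly by the direct join, and 39 of these 47 had a length divisible by 3. These sets hold different genes, and no test was made.

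Of the 15 microexons with most included reads, 12 were in 95% or more of the reads of each library. Rpl41, which encodes a very short ribosomal protein, carried a coding microexon of 23 bases in 1738 of 1750 reads of replicate 1 and 1699 of 1709 of replicate 2. A second Rpl41 microexon of 25 bases, which holds the start or stop codon or reaches past it, was in 1607 of 1607 and 1565 of 1566. Both libraries thus included them in over 99% of the reads that carried or skipped them. An overlapping 23-base form of the second exon was on a further 34 and 44 reads. Those reads count as neither included nor skipped for the 25-base form. Selenow, a selenoprotein, had its 25-base microexon in 1520 of 1533 and 1824 of 1849 reads. An in-frame TGA, which a selenoprotein reads as selenocysteine, begins at base 8 of that exon as printed above. Gpx4, the glutathione peroxidase that protects membrane lipids, had its 25-base exon in all 683 and 620 spanning reads. The 26-base exon of Morf4l1, a chromatin protein, the 27-base exon of Poldip2 and the 24-base exon of Atp5mpl, an ATP synthase subunit, were likewise in every read, 523, 431 and 411 over both libraries. For Ptgds, the prostaglandin D synthase of the brain's barriers, the 26-base exon was in 250 of 252 and 677 of 678 reads. Inclusion was 96.4 to 99.7% over both libraries for Aplp1, an amyloid precursor relative, the cochaperone Ptges3, Sh3glb2 and Mtch2. Counts are reads without a correction for length and do not rank the genes' levels.

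The other 3 of the 15 were below 90%. Bsg, the cell surface glycoprotein basigin, carried its 25-base exon in 1917 of 2326 reads of replicate 1 (82.4%) and 1454 of 1776 of replicate 2 (81.9%). No skipping read of Bsg joined the flanking exons directly, and 727 of 731 were near-length reads. Without those, inclusion was 99.9%. Uqcrh, a subunit of respiratory complex III, had its 21-base exon in 211 of 281 (75.1%) and 192 of 260 reads (73.8%), also with 0 direct joins. Of its 138 skipping reads, 4 were near-length reads and 134 used other introns. Measured against an overlapping 17-base form, 135 of these 138 were near-length reads. Cd47, the signal that restrains phagocytes, stood apart from both. Its 25-base exon, which lies among the alternatively spliced exons of the cytoplasmic tail, was in 391 of 505 (77.4%) and 563 of 695 reads (81.0%), and 217 of 246 skipping reads were direct joins.

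Other microexons were passed over mainly by the direct join. In the Mef2 transcription factors, the 24-base exon belongs to the transactivation region. Mef2a included it in 75 of 88 (85.2%) and 81 of 100 reads (81.0%). Mef2c did so in 76 of 85 (89.4%) and 170 of 191 (89.0%). Max, the partner of Myc, has a 27-base exon near its start that was in 16 of 37 (43.2%) and 15 of 35 reads (42.9%). For each of these 3 genes the exact intervals of the libraries overlapped, as drawn in the plot of partial inclusion.

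**Figure D2:**
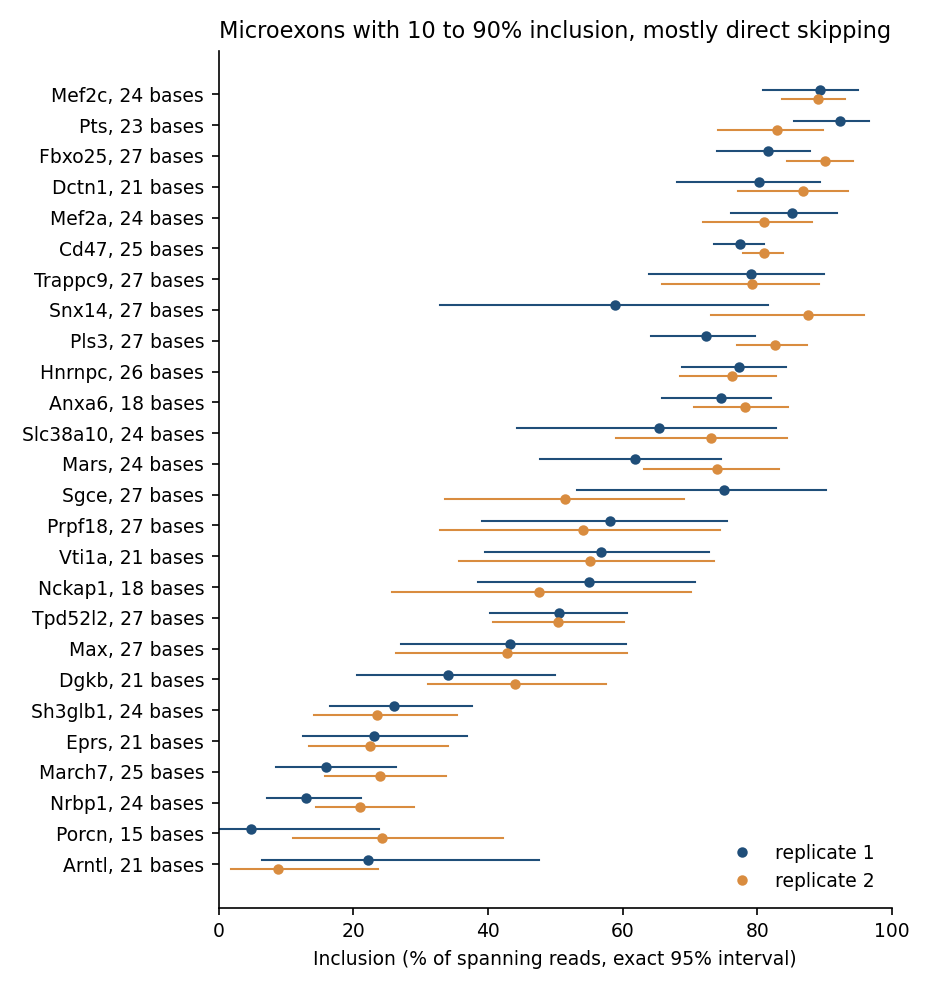
Inclusion (percent of spanning reads) of 26 microexons with 10 to 90% inclusion, 50 or more reads and mostly direct skipping, in replicate 1 and replicate 2. Points are the libraries and bars the exact 95% intervals, which cover counting error only. From Arntl, with 22.2 and 8.82%, to Mef2c, with 89.4 and 89.0%, the exons spread over the range, and Tpd52l2 lies at 50.5% in both libraries.

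Among cytoskeletal and membrane proteins, the 18-base exon of Anxa6, the calcium-dependent membrane binder annexin A6, was in 91 of 122 (74.6%) and 115 of 147 reads (78.2%). Pls3, the actin bundler plastin 3, had its 27-base exon in 100 of 138 (72.5%) and 181 of 219 (82.6%). The WAVE complex, which drives actin branching, was represented by Nckap1, with an 18-base exon in 22 of 40 (55.0%) and 10 of 21 reads (47.6%). The complex also has Abi1, whose 15-base exon was in 69 of 77 (89.6%) and 64 of 69 (92.8%). Of its 13 skipping reads, 1 was a direct join and 11 were near-length reads, and inclusion without the latter was 98.5%. Dctn1, the dynactin subunit that binds microtubules, held exons of 21 bases at 4 of 17 and 6 of 17 reads and at 49 of 61 and 66 of 76. The first had the lower share in each library, over fewer reads. In traffic genes, Sh3glb1, endophilin B1, had a 24-base exon in 19 of 73 (26.0%) and 16 of 68 (23.5%), and the SNARE gene Vti1a had a 21-base exon in 21 of 37 (56.8%) and 16 of 29 (55.2%). Dnm2, the ubiquitous dynamin, had the shortest annotated member microexon, 12 bases, in 8 of 15 (53.3%) and 13 of 28 reads (46.4%). Nrbp1, a pseudokinase, included its 24-base exon in 13 of 100 (13.0%) and 28 of 133 (21.1%). In Hnrnpc the 26-base exon lies in the 5′ UTR and was in 95 of 123 (77.2%) and 112 of 147 (76.2%). Nrbp1, Max, Pls3, Hnrnpc, Sh3glb1 and the levels of single Dctn1 exons were chosen after their values were seen.

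A list of 109 genes with microexons was set beside the members. It was drawn from general knowledge, with earlier results of these data known, so its values are a description. All 109 had reads, 16 had a member microexon and 10 had one with 20 or more reads, 12 microexons in all. Their median inclusion was 64.7%, and 9 of the 12 were under 90%, beside 98 of the 239. The 12 include those of Mef2a, Mef2c, Dnm2, Vti1a and Abi1 above. Ptk2, focal adhesion kinase, had an 18-base exon in 9 of 17 (52.9%) and 14 of 27 reads (51.9%) and a 21-base exon in 10 of 17 (58.8%) and 17 of 27 (63.0%), both annotated only in noncoding transcripts. The 2 exons of 25 bases in Sgip1, an endocytic adaptor, were in 13 of 13 and 17 of 18 reads, and in 10 of 11 and 16 of 17. Bin1, the membrane-bending amphiphysin 2, had its 24-base exon in 83 of 212 (39.2%) and 112 of 301 (37.2%), with 5 direct joins among 318 skipping reads. Of 31 annotated microexons of the list that 20 or more reads spanned, 14 had any included read. Those with none include exons of 9 bases in Ap1s2 (0 of 108) and Ptk2 (0 of 51), of 12 and 18 bases in Nrcam (0 of 55 and 0 of 44), of 15 bases in Ergic3 (0 of 852) and of 21 bases in Dtna (0 of 60). The Nrcam exons were passed over by the direct join in 45 and 42 reads, whereas 96 of the 108 reads over the Ap1s2 exon and 46 of the 51 over that of Ptk2 were near-length reads.

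The genes of splicing factors that act on microexons were read at different depths. Srrm4, the neuronal activator of microexons, had 8 and 10 reads, and Srrm3 had 11 and 18. Rbfox1 had 219 and 230, Rbfox3 302 and 349, and Celf4 737 and 632. Ptbp1, a repressor of neuronal exons, had 24 and 22, and its neuronal relative Ptbp2 126 and 141. At under 20 reads per library the levels of Srrm4 and Srrm3 rest on few molecules.

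The lowest inclusion was found for exons that few molecules carried. Nnat, an imprinted membrane protein of the developing brain, included its annotated 27-base exon in 0 of 108 and 3 of 119 reads, with 223 direct joins. The annotated 20-base exon of Rapgef4, the cyclic AMP sensor Epac2, was in 0 of 159 and 2 of 173. Only 1 of its 330 skipping reads was a direct join. The others of the 10 lowest were not in the annotation: those of Btf3l4, Vps53, Sh3bgrl, Rchy1, Rnps1 and Pak1 and short forms in Bsg and Uqcrh, with 2 to 10 included reads and 0.409 to 2.82% inclusion. The 23-base form in Bsg and the 17-base form in Uqcrh overlap the longer microexons described above and share their skipping reads. Of these reads, 726 of 731 in Bsg and 135 of 138 in Uqcrh were near-length reads, with 0 direct joins. Without the near-length reads, inclusion of the short forms was 37.5 and 57.1%. Reads that carried the longer exons count as neither included nor skipped for the short forms.

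Exons missing from the annotation held 258 reads, beside 39725 for annotated microexons, counted once per microexon. Of 35 such microexons, 19 had 20 or more reads, with a median inclusion of 4.90%, beside 94.8% for 220 annotated ones. Only that of Ptcd3, a mitochondrial translation factor, reached 90%. Its unannotated 25-base exon was in 42 of 43 reads of replicate 1 and 54 of 54 of replicate 2. Eprs, the glutamyl-prolyl tRNA synthetase, held a 21-base exon in 12 of 52 (23.1%) and 16 of 71 reads (22.5%), with 92 direct joins. Camk2b, a subunit of the synaptic kinase CaMKII, held a 17-base exon in 13 of 14 and 8 of 11. Of its 4 skipping reads, 3 were near-length reads and 0 were direct joins. Without the near-length reads its inclusion was 95.5%. A 24-base exon of Pak1 was in 2 of 192 and 8 of 245, and a 21-base exon of Snx21 in 2 of 18 and 5 of 41. Each of these 5 was read in both libraries. The shortest microexons with 10 or more included reads in each library were all annotated. They were that of Abi1, a 17-base exon of Sugt1, and 18-base exons of Anxa6, Nckap1, Hprt and Mau2. The Sugt1 exon was in 32 of 39 and 46 of 52 reads. Of its 13 skipping reads, 11 were near-length reads and 0 were direct joins, and inclusion without the former was 97.5%. That of Hprt was in 27 of 28 and 36 of 36, and that of Mau2 in 28 of 30 and 46 of 46.

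Reads that span 2 microexons show whether the choices fall together. For each pair, included against skipped was tested by Fisher's exact test (two-sided), adjusted by Benjamini-Hochberg over all 29332 pairs of internal exons, of which 35.9% were called at 0.05. Of 12 pairs of microexons, 6 were called, so the share is to be read against that background. Amph, amphiphysin, has neighbouring exons of 24 bases, and 91 reads of replicate 1 and 138 of replicate 2 carried both. Neither was in 4 and 3 reads, and 4 reads over both libraries had 1 of them (adjusted p = 8.88e-09). In Ap1ar, an adaptor regulator, 22 and 41 reads carried exons of 26 and 27 bases together, 1 and 3 had neither, and 1 read had 1 alone (adjusted p = 1.27e-04, and 0.139 without replicate 2). All 7 Amph reads and all 4 Ap1ar reads with neither exon passed over both with 1 intron.

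In Ptk2 the 21- and 18-base exons, with 1 exon between them on the reads, were both present in 8 and 12 reads and both absent in 6 and 8. Of the remaining reads, 7 had the 21-base exon alone and 3 the 18-base exon alone (adjusted p = 0.00545). None of the 14 reads with neither used a single intron for both. The Dctn1 exons of 21 bases were both in 3 and 5 reads and both absent in 11 and 9, the latter by 1 intron in every read, and 6 reads had 1 alone (adjusted p = 0.00864). In both Ptk2 and Dctn1 most reads had the 2 exons in the same state, 77.3 and 82.4%. The Rpl41 pairs, with adjusted p of 0.00665 and 0.0405, each rest on 1 read that lacks both exons. With replicate 2 alone, 3 of 7 pairs were called, and the Ptk2 pair had an adjusted p of 0.0530. With replicate 1 alone, 1 of 3 was called, that of Amph. Pairs of Necab2, Sfxn4, Hsd17b4, Rchy1, Sgip1 and Trim27 did not pass the test.

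**Figure D3:**
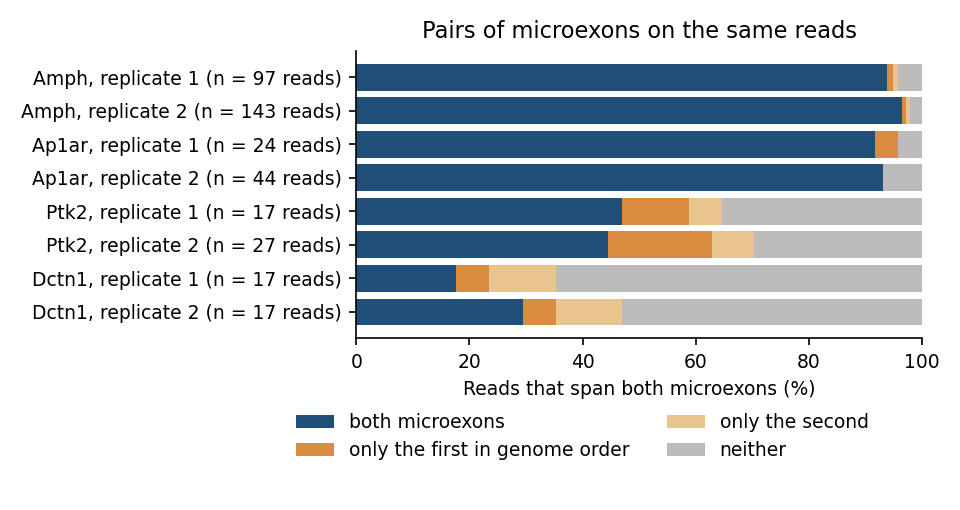
Reads that span both microexons of Amph, Ap1ar, Ptk2 and Dctn1, in percent per library, by which of the exons they carried. The first exon is the one with the lower genome coordinate. In Amph 229 of 240 reads carry both, while in Dctn1 20 of 34 carry neither.

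Inclusion was compared between the libraries. Of 239 microexons, 162 lay within 5 percentage points and 13 differed by over 20, and the median difference was 2.55 points. By Fisher's exact test adjusted over 13094 internal exons, none of 204 microexons tested was called, against 0.0458% of all exons tested, and 7 (3.43%) had an unadjusted p under 0.05, beside 160 of all exons (1.22%). The largest differences were in Osbpl6 (10 of 20 and 16 of 18 reads), Fam92a (4 of 21 and 5 of 10), Snx14 (10 of 17 and 35 of 40), Ipo11 (10 of 20 and 11 of 14) and Rgs12 (9 of 11 and 8 of 15). All rest on few reads, with adjusted p of 1 for each. Differences within the exact intervals were not detectable at this depth.

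**Figure D4:**
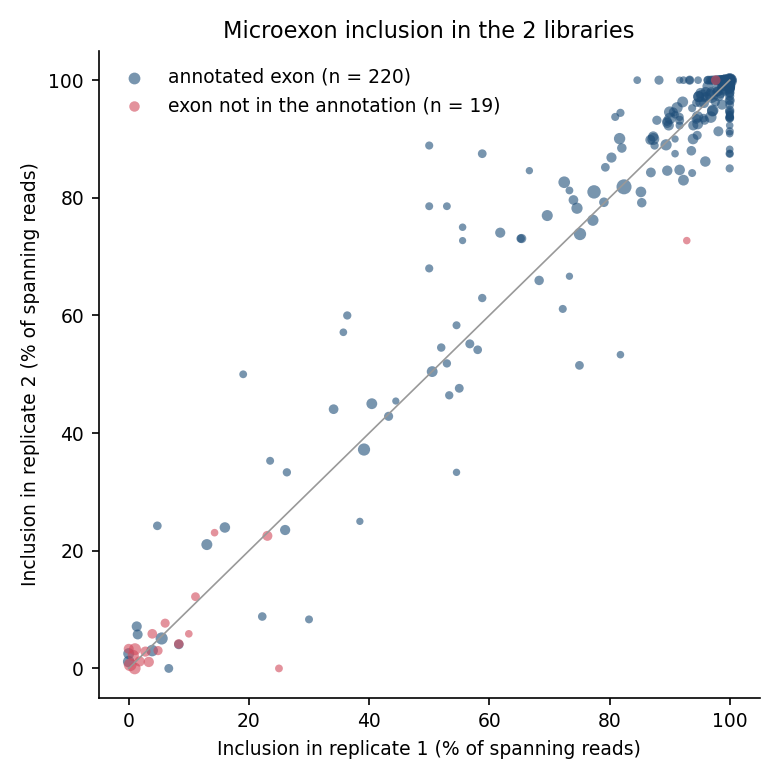
Inclusion of the 239 microexons with 20 or more reads in replicate 1 (x axis) and replicate 2 (y axis), in percent of spanning reads. Point area grows with reads, red points are exons missing from the annotation, and the line marks equal inclusion. Most annotated exons sit at the upper right and most of the 19 unannotated ones at the lower left.

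The reads of each member model were also compared between the libraries. Of 294 member models with 10 or more reads, 20 (6.80%) were called by Fisher's exact test, adjusted over 11111 models, of which 4.96% were called, so the members' share is near the background. Higher levels were found in replicate 1 for 3 and in replicate 2 for 17, beside 139 and 412 over all models. Ptgds-203 had 246 and 667 reads, 185 and 488 CPM (adjusted p = 3.05e-40), while its share of the gene's reads was 17.2 and 18.2%. Bsg-205 was higher in replicate 1, at 1411 and 1033 CPM (adjusted p = 2.29e-16), with 78.9 and 77.5% of the gene's reads. For both models the share of the gene's reads differed by under 2 points. An annotated model of Aplp1 had 308 and 469 reads (adjusted p = 6.33e-06), with 57.6 and 65.6% of the gene's reads. Cd47-208 had 55 and 123 reads (adjusted p = 6.52e-05), with 9.82 and 16.3% of the gene's reads. The differences in these shares were not tested. A NIC model of Mef2c had 0 and 43 reads (adjusted p = 5.35e-11), but its chain of introns had 17 reads in replicate 1 under the class of incomplete matches, and with those the adjusted p is 0.0293. The choroid plexus markers given above also differ between the libraries, and their part in these differences was not tested. Scaling by TMM moved all models by -0.15 on the log2 scale, replicate 2 against replicate 1, and left 14 models called, 6 higher in replicate 1 and 8 in replicate 2, with 11 of them among the 20. DESeq2's size factors gave the same counts. With edgeR's exact test, a dispersion estimated from the 2 libraries and TMM library sizes, 0 of the 294 models were called and 5 had an unadjusted p under 0.05. That dispersion took the 2 libraries as 1 group and takes in the difference tested, so this result cannot decide on the 20 calls.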

How the data were processed

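Total RNA of hippocampus was sequenced as long reads in 2 libraries. The authors deposited, per library, a table of read counts per transcript model and the models' exons. Per the deposited description files and the file headers these come from TALON, on mm10 with GENCODE M21. Aligner, tool versions and sequencing platform: not given in the sources used here. A model was taken as a gene with its chain of introns, so that both libraries share it. Counts are reads as deposited, no molecular identifiers are described, and all intervals cover counting error only.

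Inclusion was the reads of models with the exon over those plus reads of models with an intron that contains it, with exact Clopper-Pearson 95% intervals, for exons with 20 or more such reads. Two-sided Fisher's exact tests were adjusted by Benjamini-Hochberg over all internal exons, models or pairs tested, at 0.05. Inclusion tests needed 5 reads in each library, and model tests 10 reads over both. There is 1 group, so no conditions were compared.

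Named microexons were the 15 with most included reads, the 10 lowest and the 5 with the largest library difference. The 5 shortest (with ties) with 10 included reads per library and the 5 unannotated with most reads were also named. So were all called pairs, all of a list from general knowledge with 20 reads, and the 5 models with the lowest adjusted p. The members and lists were chosen with earlier results of these data known. Calculations used Python 3.11.15, scipy 1.17.1, numpy 2.4.6, pandas 2.3.3, R 4.3.3, edgeR 4.0.16 and DESeq2 1.42.0, and scripts were tested on simulated data. Alternatives covered the classes, minimum reads, lengths, skipping, matching, scaling and each library left out. Leaving out near-length reads, and keeping a chain's reads of any class, were chosen after seeing the data. Some results that the naming rule covers are not reported here.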

Additional observations from a re-analysis of the deposited data

Results flagged for a closer look

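Incomplete matches, models that lack an end of an annotated transcript and are no members, held 424 exons of 3 to 27 bases on 2247 reads of replicate 1 and 2504 of replicate 2. Of these, 275 were also held by members. A further 45 had more than 3 reads, above the limit that a count of 0 allows, and lay in no member. Top1, topoisomerase I, had a 25-base exon on 164 reads, 90 in replicate 1 and 74 in replicate 2. Pclo, the presynaptic scaffold protein piccolo, had a 27-base exon on 28 reads, 10 and 18. Plekha5 had an 18-base exon on 19 reads, 10 and 9. All 3 were read in both libraries.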

How the results depend on the processing

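No paired analysis was possible because the libraries form 1 group with no second condition to pair. The search for motifs around the exons was not run, since no genome sequence was used. Compared with 417 microexons, 895 models, a median inclusion of 93.5%, 98 microexons below 90%, 231 of a length divisible by 3, 6 pairs and 20 models, a minimum of 10 reads per model gave 216, 294, 95.9%, 59 and 114. A longest exon of 15 bases gave 11, 26, 16.7%, 6 and 11, with no pair to test, so 0 called. A longest exon of 30 bases gave 647, 1361, 95.5%, and 347 divisible by 3, with 13 of 22 pairs. Known models alone gave 409 models, 100% and 26 below 90%. Incomplete matches raised the models to 1491 and the median to 94.0%. The median was 94.2% with 1 read in each library, 93.8% by deposited identifier, and 94.1% with 63 below 90% at 50 reads. With direct joins alone it was 100% with 61 below 90%, and 2 of 2 pairs were called. Without near-length reads it was 96.4%.

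Leaving out a library gave 341 to 346 microexons, 588 to 612 models, medians of 93.5 to 95.5%, 59 to 69 below 90%, 178 to 196 divisible by 3 and 1 to 3 pairs. Without replicate 1 the Ptk2 pair had an adjusted p of 0.0530 and an Rpl41 pair 0.0606, and without replicate 2 the Ap1ar pair had 0.139. No inclusion difference between the libraries was called by Fisher's exact test at any setting run. The 20 models called fell to 11 with no minimum of reads and to 0 with edgeR's exact test. The dispersion of that test takes in the difference tested, so its 0 decides nothing about the 20. The cause of these moves was not tested, beyond fewer exons, reads or libraries entering. At 20 reads an inclusion value is coarse, and exons under 12 bases were not detected.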
